A study of Mus musculus with 6 samples.

Results

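The channel genes described here are the lines of the gene table whose symbol begins with Kcn (potassium channels), begins with Cacn (voltage-gated calcium channels) or is Scn with a number and the letter a or b (voltage-gated sodium channels). The symbol rule found 135 lines among 23233, and 63 of the 135 were among the 13430 lines the authors tested. By class, 43 of 95 potassium, 6 of 14 sodium and 14 of 26 calcium lines were tested. The rule goes by name, so it also takes lines that do not encode voltage-gated channels. Among them are 15 inward rectifier (Kcnj) and 14 tandem-pore leak channel (Kcnk) lines, and the calcium-activated Kcnn lines. Also among them are the noncoding Kcnq1ot1 and most of the 8 Cacng lines, several of which encode partners of glutamate receptors. The measured tissue was whole gut dissected from C57BL/6J mouse embryos at E10.5, described by the series as male. There were 3 wildtype samples and 3 homozygous Ret null samples, which lack the receptor of the GDNF ligands that crest cells need to colonise the gut. The null allele, any pooling of embryos and their litters are not described in the labels, so p-values may measure a spread that is partly technical. Gut epithelium markers were measured in both genotypes, as 10 of 10 listed genes, with sums of 149 FPKM (wildtype) and 321 FPKM (Ret null).

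Voltage-gated channels open when the membrane depolarises: sodium channels carry the rising phase of the action potential, calcium channels couple it to secretion, contraction and transcription, and potassium channels end it. Inward rectifiers and leak channels set the resting potential. In the gut these genes serve enteric neurons, smooth muscle, interstitial pacemaker cells, endocrine cells and epithelium, and at the embryonic stage studied the first neurons are only beginning to form.

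The deposited table gives 1 value per genotype and none per sample, in FPKM (fragments scaled to transcript length and library size), so the replicates' spread is hidden and the depth of sequencing unknown. All differences are Ret null relative to wildtype, on the log2 scale without a pseudocount unless stated. The error after ± is the standard error implied by the authors' test statistic, the log2 difference divided by that statistic. The verbs rise and fall are kept for genes with an authors' deposited q below 0.05. Among the 135 lines, and for Abcc8, a call had q = 0.000775, the smallest in the authors' deposited table, unless another q is given. In whole tissue, fewer cells of a type, less RNA per cell and unequal amounts of neighbouring tissue taken at dissection cannot be told apart.

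Channel genes changed in both directions in Ret null gut. Of the 63 tested, 15 fell and 10 rose, which is 39.7% called, where 14.6% of all tested lines were called, 8.88% lower and 5.69% higher. The 63 had passed the authors' requirement for testing, which a gene can meet through the genotype where it is high, so the share describes these lines only. All 4 sodium channel calls and both calcium channel calls were falls, while potassium channel genes were split, with 9 falls and 10 rises among 19 calls. The shares called were 44.2% of tested potassium, 66.7% of sodium and 14.3% of calcium channel genes, the last near the 14.6% of all tested lines. The median log2 difference with 1 FPKM added was -0.04 over the 63 and 0.01 over all tested lines. By class it was -0.02 for potassium, -0.33 for sodium and -0.10 for calcium channel genes that were tested, and -0.02, -0.10 and -0.11 over all 95, 14 and 26 lines. At least 2-fold changes were found for 7 of the falls and 6 of the rises.

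Most of these genes had low values. The median of the higher genotype value was 2.81 FPKM over the 63 tested channel genes and 12.3 FPKM over all tested lines, and 9 channel genes reached 10 FPKM. Below 2 FPKM, 8 of 23 channel genes were called, against 18.5% of all tested lines in that range. From 2 to 5 FPKM the count was 9 of 24 against 21.6%, and from 5 to 20 FPKM it was 8 of 14 against 15.1%. Neither of the 2 channel genes at 20 FPKM or more was called, where 9.59% of tested lines were. The 2 highest were Cacnb3, the gene of a calcium channel beta subunit, at 42.9 FPKM (wildtype) and 48.02 FPKM (Ret null), and Cacng7, at 36.0 and 43.8 FPKM.

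**Figure D1:**
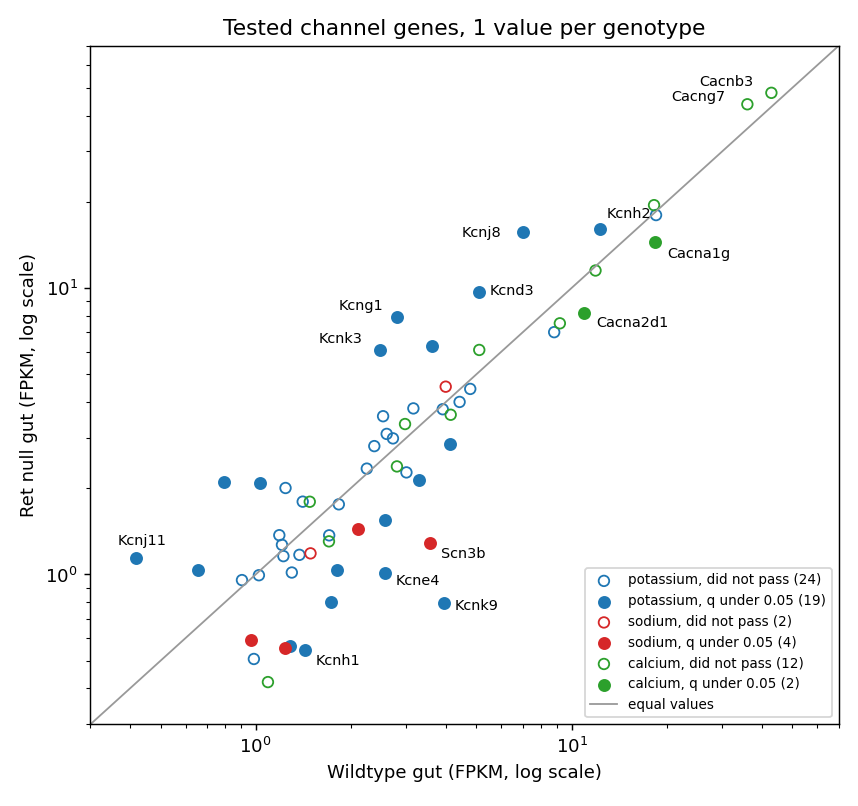
FPKM of the 63 tested channel genes in wildtype (x axis) and Ret null gut (y axis), both on log scales, with 1 point per gene coloured by class and filled where q was under 0.05. Kcnk9 and Scn3b lie far below the line of equal values and Kcng1 and Kcnj8 far above it, while Cacnb3 and Cacng7, the highest points, lie close to it.

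The calls rest on the authors' way of obtaining p. With p taken from their test statistic as a normal deviate and adjusted over the same lines (the statistic-based p below), 9 of the 25 calls remained, at 4.5% of all tested lines called, 2.78% lower and 1.72% higher. The 9 were Kcnk9, Scn3b, Kcnh1, Scn3a and Kcnn3 among the falls, and Kcng1, Kcnk3, Kcnj8 and Kcnd3 among the rises. The other 16 calls did not pass with the statistic-based p.

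Among the pore-forming Kv subunits and the silent subunits that join them, 3 of 15 tested genes fell and 4 rose. That is 46.7% called, against 14.6% of all tested lines. Kv4 channels, which carry fast transient current, held calls both ways. Kcnd3 rose from 5.09 to 9.72 FPKM (0.93 ± 0.21), and its relative Kcnd2 fell from 1.81 to 1.04 FPKM (-0.80 ± 0.39, q = 0.0113 in the authors' deposited table). The third Kv4 gene, Kcnd1, stood at 2.37 and 2.81 FPKM and did not pass. In wildtype gut Kcnd3 was thus 2.82-fold above Kcnd2 per length, and in Ret null gut 9.37-fold.

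Among the silent subunits, which form no channel alone and modify other Kv channels, 1 of 2 tested genes was called (14.6% of all tested lines). Kcng1 rose from 2.80 to 7.89 FPKM (1.497 ± 0.31), the largest log2 rise of any tested channel gene.

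The ether-a-go-go family was split like Kv4. Kcnh1 fell from 1.43 to 0.544 FPKM (-1.40 ± 0.41). Kcnh2, the ERG channel gene of heart and smooth muscle, rose from 12.3 to 16.1 FPKM (0.39 ± 0.19, q = 0.00658 in the authors' deposited table), and was the most abundant pore-forming Kv gene in both genotypes. Of the Kv1 genes only Kcna1 was called, rising from 0.655 to 1.04 FPKM (0.66 ± 0.36, q = 0.0303 in the authors' deposited table). Kcna5, the highest Kv1 gene, stood at 4.42 and 4.002 FPKM, and Kcna6 at 3.00 and 2.27 FPKM (q = 0.0841 in the authors' deposited table). No Kv7 gene passed. Kcnq3, a subunit of the neuronal M current, came nearest, going from 0.987 to 0.507 FPKM (-0.96 ± 0.58, q = 0.0509 in the authors' deposited table). Kcna6 and Kcnq3 are outside the rule for named genes and were chosen after their values were seen.

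Accessory Kv subunits held 1 call among 10 tested genes, 10% against the 14.6% of all tested lines. Kcne4, which encodes a small membrane protein that inhibits some Kv channels, fell from 2.57 to 1.02 FPKM (-1.34 ± 0.46). The most abundant was Kcne1l, with 18.5 FPKM in wildtype gut and 17.97 FPKM in the null (-0.04 ± 0.21). All 4 tested genes of the calcium-sensing Kcnip proteins, partners of Kv4 channels, and all 3 Kcnab genes, which encode cytoplasmic beta subunits, did not pass. The range of log2 differences over the 10 genes was from -1.34 to 0.69.

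**Figure D2:**
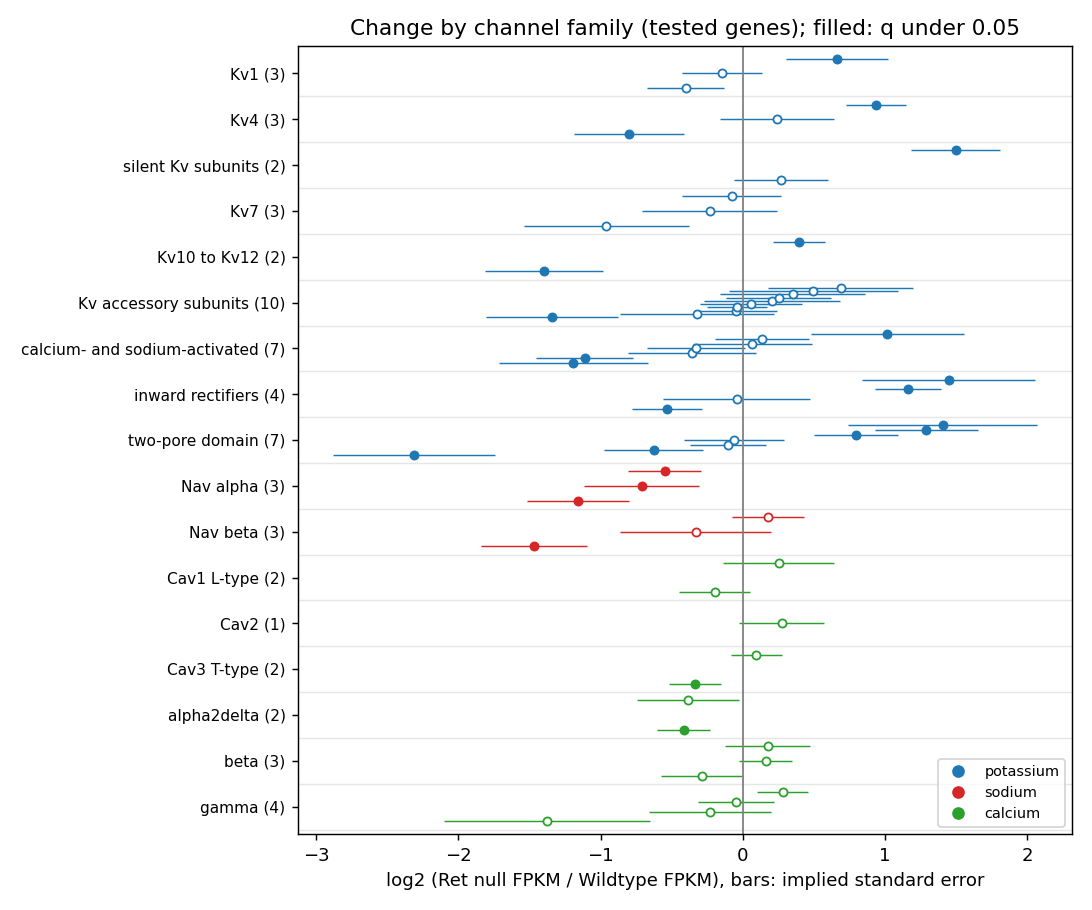
Log2 ratio of Ret null to wildtype FPKM (x axis) for 61 of the tested channel genes by family (rows, number tested in parentheses), with bars for the implied standard error and filled points for q under 0.05. Filled points lie on both sides of 0 in 5 potassium channel families, and the filled sodium and calcium channel points all lie below 0.

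Among calcium- and sodium-activated potassium channels 2 of 7 tested genes fell and 1 rose, 42.9% called against 14.6% of all tested lines. Kcnn3, encoding the small-conductance channel that follows calcium entry in neurons and in other excitable cells, fell from 1.74 to 0.804 FPKM (-1.11 ± 0.34). Its intermediate-conductance relative Kcnn4, typical of epithelial and blood cells, rose from 1.03 to 2.08 FPKM (1.02 ± 0.54, q = 0.016 in the authors' deposited table). Kcnt1, a sodium-activated channel gene of neurons, fell from 1.29 to 0.564 FPKM (-1.19 ± 0.52, q = 0.00263 in the authors' deposited table). Kcnmb4, a beta subunit of the large-conductance channel and the most abundant of the group, stood at 8.81 and 7.01 FPKM and did not pass.

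Inward rectifiers had 4 tested genes, of which 1 fell and 2 rose, 75% called against 14.6% of all tested lines. The risers encode the pore subunits of ATP-sensitive potassium channels, which close when cellular ATP is high. Kcnj8, the form of vascular and smooth muscle, rose from 7.02 to 15.7 FPKM (1.16 ± 0.23). Kcnj11, the form of pancreatic endocrine cells and neurons, rose from 0.419 to 1.14 FPKM (1.45 ± 0.61, q = 0.00613 in the authors' deposited table). These pores assemble with sulphonylurea receptors, which were chosen here after their values were seen. Abcc8, the usual partner of Kcnj11, rose from 1.40 to 2.56 FPKM (0.87 ± 0.33), and Abcc9, that of Kcnj8, stood at 5.69 and 7.05 FPKM (0.31 ± 0.20, q = 0.0593 in the authors' deposited table). Kcnj2, a strong rectifier of muscle and other cells, fell from 4.12 to 2.85 FPKM (-0.53 ± 0.25, q = 0.00797 in the authors' deposited table). Beside these values, 7 of 9 tested smooth muscle markers rose and 1 fell, 3 of 4 tested pancreatic and endocrine markers rose, and 10 of 11 tested skeletal muscle markers fell. Neuronal markers fell for 12 of 13 tested genes and endothelial markers for 3 of 8, with 0 rises in either list. The part of these cell types in the Kcnj values was not tested.

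Tandem-pore leak channels held the largest fall. Of 7 tested genes 2 fell and 3 rose, 71.4% called against 14.6% of all tested lines. Kcnk9 fell from 3.93 to 0.793 FPKM, 4.96-fold (-2.31 ± 0.57), while Kcnk3 rose from 2.48 to 6.07 FPKM (1.29 ± 0.36). These genes encode the closely related acid-sensitive TASK channels, and their order turned over: Kcnk9 was the higher in wildtype and Kcnk3 the higher in Ret null gut. The span of Kcnk3 also holds another tested line, Gm9899, and whether counting used strand is not given in the sources used here, so its value is less certain. Kcnk2, a mechanically gated leak channel gene, fell from 3.29 to 2.13 FPKM (-0.63 ± 0.35, q = 0.0271 in the authors' deposited table). Kcnk1 rose from 3.62 to 6.28 FPKM (0.79 ± 0.30), and Kcnk16, a channel gene of pancreatic islets, rose from 0.795 to 2.11 FPKM (1.41 ± 0.66, q = 0.0416 in the authors' deposited table). The endocrine marker Gcg, which encodes glucagon, rose from 20.03 to 51.1 FPKM in the same table. Other genes of its list are named after their values were seen. Pdx1 did not pass (0.870 and 2.34 FPKM, q = 0.45 in the authors' deposited table). Of those not tested, Ins2 had the lower value in Ret null gut (0.410 and 0.178 FPKM), and Ins1, Iapp, Pax6 and Ptf1a the higher. The part of endocrine cells in the Kcnk16 value was not tested.

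Promoter windows are shown for the opposite movers Kcnn3 and Kcnn4, and Kcnk1 and Kcnk2, because for them the start of the line equals a RefSeq start site. A line gives 1 value for the whole gene, and which start sites the measured transcripts used was not tested. Each window is the 250 bases before the start site in GRCm38.p6, the build called mm10 in the submitters' processing notes, with CpG dinucleotides in capitals. The windows are chr3:89519914-89520163 (plus strand) for Kcnn3, chr7:24370013-24370262 (plus) for Kcnn4, chr8:125994852-125995101 (plus) for Kcnk1 and chr1:189344193-189344442 (minus) for Kcnk2.
Kcnn3: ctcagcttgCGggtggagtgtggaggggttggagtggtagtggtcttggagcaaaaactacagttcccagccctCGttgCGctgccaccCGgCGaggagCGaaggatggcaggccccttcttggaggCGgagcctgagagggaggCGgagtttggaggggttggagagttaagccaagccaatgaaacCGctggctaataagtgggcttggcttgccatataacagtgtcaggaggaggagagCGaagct
Kcnn4: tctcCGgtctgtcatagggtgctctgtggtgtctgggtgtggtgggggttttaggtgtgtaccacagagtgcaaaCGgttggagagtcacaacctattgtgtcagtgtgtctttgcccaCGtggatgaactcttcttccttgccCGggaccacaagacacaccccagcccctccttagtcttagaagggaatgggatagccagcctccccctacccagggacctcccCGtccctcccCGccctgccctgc
Kcnk1: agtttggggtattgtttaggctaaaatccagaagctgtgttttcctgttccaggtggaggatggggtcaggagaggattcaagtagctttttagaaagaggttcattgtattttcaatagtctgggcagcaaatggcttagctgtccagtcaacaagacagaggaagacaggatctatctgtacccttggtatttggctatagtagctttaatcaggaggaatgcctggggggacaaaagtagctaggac
Kcnk2: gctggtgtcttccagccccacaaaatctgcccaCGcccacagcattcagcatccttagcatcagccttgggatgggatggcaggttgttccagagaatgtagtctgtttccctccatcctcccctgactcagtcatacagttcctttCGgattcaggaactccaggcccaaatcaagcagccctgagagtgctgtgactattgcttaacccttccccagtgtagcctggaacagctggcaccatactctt
Kcnn3, which fell, holds 10 CpG dinucleotides and Kcnn4, which rose, 6, and both windows have 58.8% G and C. Kcnk1, which rose, holds none and Kcnk2, which fell, 2. The median over all 32851 RefSeq windows of this length was 6. Of the 63 tested channel genes 42 have windows in the RefSeq table. The GC box GGGCGG, searched on both strands, was found for 26 of these 42 genes and in 32.7% of all windows. The E-box CAGCTG was found for 12 genes and in 13% of all windows, and TATAAA for 1 gene and in 12.4% of all windows. A gene can have several windows, so its chance of a match is higher than that of a window. Of the motif of the repressor REST, which silences neuronal genes in other cells, the part TTCAGCACC was found for 0 of 42 genes (0.301% of all windows) and the part GGACAGC for 7 (5.28%), among them Kcne4 and Kcnk1. Among the printed windows, Kcnn4 holds 1 GC box, Kcnk2 holds 1 E-box and Kcnk1 holds 1 GGACAGC.

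Sodium channel genes were called only as falls. In the authors' Cuffdiff test 4 of 6 tested genes fell and 0 rose, where 8.88% of all tested lines were called lower and 5.69% higher. Of the higher ones 0 passed the unadjusted p at 0.05 or the statistic-based p. The statistic-based p kept 2 of the 4 falls, Scn3b and Scn3a. Scn3b, encoding a beta subunit that shapes the gating of the pore, fell from 3.56 to 1.29 FPKM (-1.47 ± 0.37). It lies on chromosome 9, 40269216 to 40291618 (mm10), over the whole annotated gene. Scn3a, the pore subunit gene typical of embryonic neurons, fell from 1.23 to 0.553 FPKM (-1.16 ± 0.36). Scn8a, a pore subunit of axons, fell from 2.11 to 1.44 FPKM (-0.55 ± 0.26, q = 0.00145 in the authors' deposited table). Scn7a, an atypical sodium channel gene expressed in glia, fell from 0.964 to 0.589 FPKM (-0.71 ± 0.40, q = 0.0352 in the authors' deposited table), and lies on chromosome 2, 66673426 to 66784910, again over the whole gene.

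Not every sodium channel gene was called. The beta subunit gene Scn2b, the most abundant sodium channel gene in Ret null gut, stood at 3.996 and 4.52 FPKM (0.18 ± 0.25) and did not pass. Scn3b and Scn2b were thus close in wildtype and 3.52-fold apart in Ret null gut. Of the 7 pore subunit genes not tested, 6 had the lower value in Ret null gut. Summed over all 14 lines the sodium channel values were 14.9 and 10.6 FPKM. Beside these values, 12 of 13 tested neuronal markers fell and 0 rose, with Tubb3 going from 23.8 to 6.90 FPKM, and the crest regulator Sox10 fell from 9.15 to 2.89 FPKM. Falls were called for 3 of the 4 tested markers of glia and Schwann cells. The 10 falls among skeletal muscle markers stand beside them too, and Scn4a, the sodium channel gene of skeletal muscle, was not tested, at 0.144 and 0.0645 FPKM. The part of neurons, glia or muscle in the sodium channel values was not tested.

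**Figure D3:**
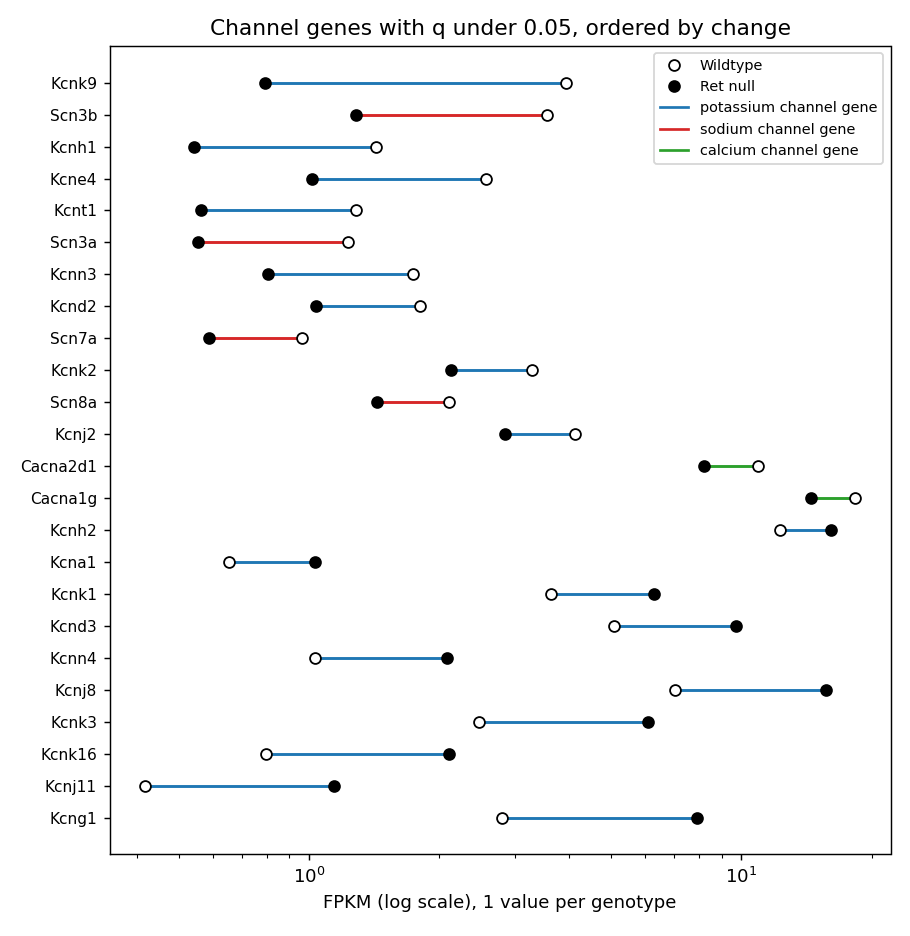
FPKM in wildtype (open points) and Ret null gut (filled points) on a log scale for 24 channel genes with q under 0.05, 1 row per gene, joined by a line coloured by class and ordered by log2 difference. The widest line of a fall is that of Kcnk9 at the top and the widest of a rise that of Kcng1 at the bottom, and every sodium or calcium channel gene shown has its filled point on the left.

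Over tested lines only, the wildtype median was 7.14 FPKM for calcium, 2.37 FPKM for potassium and 1.80 FPKM for sodium channel genes. In the authors' Cuffdiff test 2 of 14 tested calcium channel genes fell and 0 rose, 14.3% against the 14.6% of all tested lines. Without adjustment 3 lower and 1 higher gene passed p under 0.05, and no calcium channel gene passed the statistic-based p. Cacna1g, the gene of a T-type pore that opens at small depolarisations, fell from 18.3 to 14.5 FPKM (-0.33 ± 0.18, q = 0.0156 in the authors' deposited table). Cacna2d1, an alpha2delta subunit gene of muscle and neurons, fell from 10.9 to 8.21 FPKM (-0.41 ± 0.19, q = 0.00145 in the authors' deposited table). Both changes were under 1.5-fold.

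The other T-type gene tested, Cacna1h, stood at 18.2 and 19.5 FPKM, level with Cacna1g in wildtype. The L-type pore genes Cacna1c and Cacna1d, which drive contraction and secretion in many tissues, had 4.14 and 5.10 FPKM in wildtype gut, and 3.61 and 6.08 FPKM in the null, and did not pass. Cacna1a, the 1 tested gene of the presynaptic Cav2 group, stood at 1.48 and 1.79 FPKM. The spans of Cacna1c and Cacna1d each overlap 1 other tested line, Dcp1b and Dcp1a. None of the 3 tested beta subunit genes passed, with log2 differences from -0.29 to 0.17, the lowest being Cacnb1, the beta subunit of skeletal muscle, at 9.18 and 7.53 FPKM. Of the gamma group, Cacng3 had the largest log2 difference of any tested channel gene not called, going from 1.09 to 0.421 FPKM (-1.38 ± 0.72, q = 0.0676 in the authors' deposited table). Genes of this paragraph other than Cacna1h, Cacna1d and Cacna1a were chosen after their values were seen.

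Channel genes below the testing requirement numbered 72, and all stood under 1 FPKM. The highest of them was Kcnn2, at 0.757 and 0.884 FPKM, and Scn7a, with 0.964 FPKM as its higher value, was among the lowest that were tested. Of the 72, 3 were listed at 0 in both genotypes, 49 had the lower value in Ret null gut and 20 the higher value, with no test. By class the lower values numbered 33 of 52 for potassium, 7 of 8 for sodium and 9 of 12 for calcium channel genes. Over the 9803 lines of the table that were not tested, 3039 had the lower value and 2226 the higher value in Ret null gut, and 4538 were listed at 0 in both.

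Listed at 0 in Ret null gut only were Cacng1 (0.638 FPKM in wildtype) and Cacng6 (0.380 FPKM), whose products belong to muscle calcium channels, and Kcnh4 (0.0982 FPKM), Kcnk12 (0.1002 FPKM) and Kcnk7 (0.0631 FPKM). Cacng2 was listed at 0 in wildtype only, at 0.01001 FPKM in the null. Cacna1s, the L-type pore gene of skeletal muscle, had 0.718 and 0.167 FPKM. Skeletal muscle markers stood beside it with summed values of 124 and 14.1 FPKM. The presynaptic pore genes Cacna1b and Cacna1e had 0.747 and 0.532 FPKM in wildtype gut, and 0.277 and 0.174 FPKM in the null. Kcnma1, the pore of the large-conductance potassium channel, had 0.849 and 0.561 FPKM. None of these differences was tested. Cacna1s, Cacna1b, Cacna1e and Kcnma1 were chosen after their values were seen.

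Genes that work with these channels were counted in lists chosen by function, and q of their called genes ran from 0.000775 to 0.0469 in the authors' deposited table. Of 5 tested acid-sensing and epithelial sodium channel genes 4 fell and 0 rose. They were Asic4 (from 4.73 to 2.19 FPKM), Scnn1b, Asic2 and Asic1, with log2 differences of -1.11, -1.31, -0.70 and -0.47. Of 18 tested partners and anchors of channels 5 fell and 1 rose. Ank2 and Nfasc had -0.48 and -0.90, Nrcam had -0.91 and Stac3, a calcium channel partner of skeletal muscle, had -1.31. Ank3, on the same list and named after its value was seen, did not pass (-0.21, q = 0.25 in the authors' deposited table). The remaining calls there, Stac2 at -0.76 and Fgf13 at 0.47, were named after their values were seen. Of 13 calcium store lines 10 were tested, and 3 fell and 2 rose. The release channel genes Ryr1, Itpr1 and Itpr2 had -1.38, -0.81 and -0.76, and Jph2 had 0.65. The second rise, of the store pump gene Atp2a3 (0.57), was named after its value was seen. Among sodium pump and exchanger genes 3 of 17 fell and 4 rose, with the pump subunit gene Atp1b2 at -0.90, the pump modulator Fxyd6 at -0.40 and Atp1b1 at 0.68. The other 3 rises, named after their values were seen, were Fxyd3, Fxyd7 and Slc8a2, at 1.86, 1.06 and 0.37. The shares called were 80% of the acid-sensing and epithelial sodium channel genes, 33.3% of the partners, 50% of the store genes and 41.2% of the pump and exchanger genes tested, where 14.6% of all tested lines were.

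Relatives of the voltage-gated channels were called in both directions. Of 6 tested HCN, CNG and other relatives 1 rose, the pacemaker channel gene Hcn4 (0.66 ± 0.33, q = 0.0171 in the authors' deposited table). Of 10 tested TRP channel genes 2 fell and 2 rose, with Trpm7 at -0.41 and Trpm5 and Trpv6 at 0.82 and 1.496. Of 7 tested chloride channel genes 1 fell and 2 rose, with Clcn5 at -1.42, and Clcn6 and Ano1, the latter a channel gene of pacemaker cells and epithelium, at 0.48 and 0.37. Of 6 genes of the REST complex 1 changed, Rest itself, which fell from 17.6 to 13.4 FPKM (-0.39 ± 0.20, q = 0.00263 in the authors' deposited table). The shares called were 16.7% for the HCN, CNG and other relatives and for the REST complex, near the 14.6% of all tested lines, 40% for TRP and 42.9% for chloride channel genes. The statistic-based p kept Asic4, Nfasc, Ryr1, Itpr1, Atp1b2, Trpm5 and Clcn5 of the genes named for these lists.

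**Figure D4:**
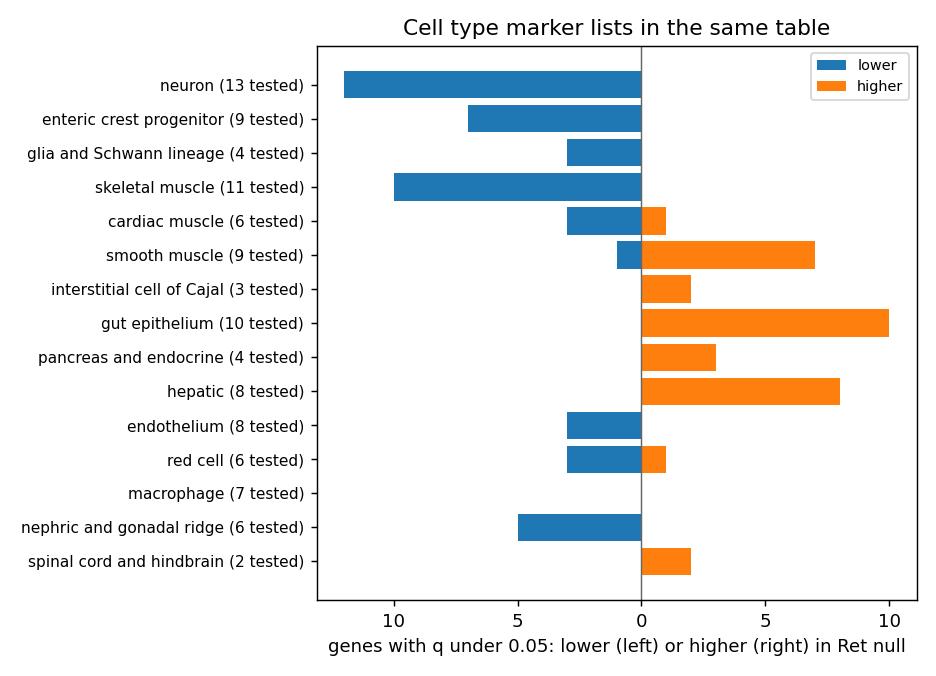
Number of genes with q under 0.05 that were lower (left bars) or higher (right bars) in Ret null gut for 15 lists of cell type markers, with the number tested in parentheses. Neuronal, crest, skeletal muscle and nephric lists lie to the left, and smooth muscle, epithelial, hepatic and pancreatic lists mostly or wholly to the right.

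The marker lists place the channel values beside the tissue makeup of the same libraries. Ret, the targeted gene, went from 8.80 to 0.0354 FPKM. Summed neuronal markers went from 180 to 93.5 FPKM, crest progenitor markers from 85.6 to 37.98 FPKM and nephric and gonadal ridge markers from 85.6 to 52.3 FPKM. Summed smooth muscle markers went from 301 to 577 FPKM, pancreatic and endocrine markers from 23.2 to 60.8 FPKM and hepatic markers from 22.4 to 312 FPKM. All 10 epithelial and all 8 hepatic markers rose, while 7 of 9 crest progenitor and 5 of 6 tested markers of the nephros and gonadal ridge fell. The crest list includes Ret itself, and without it 6 of 8 fell, with sums of 76.8 and 37.95 FPKM. Of 3 tested markers of interstitial cells of Cajal 2 rose, Kit and Ano1, and Ano1 is also counted among the chloride channel genes. Of 6 tested cardiac markers 3 fell and 1 rose. Of 8 endothelial markers 3 fell, and of 6 red cell markers 3 fell and 1 rose. Of 7 macrophage markers 0 were called by the authors' Cuffdiff. In the lists with 0 calls in a direction, at most 1 genes passed p under 0.05 in it before adjustment, and 0 with the statistic-based p. In the spinal cord and hindbrain list both tested genes, Mnx1 and Nkx6-2, rose, and Olig2 and Olig3 were listed at 0 in at least 1 genotype. The part of any of these cell types in a channel gene's value was not tested.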

How the data were processed

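Polyadenylated RNA from 6 gut samples (3 per genotype) was sequenced as paired reads of 75 bp, per the labels' protocols and the series' design text. The submitters' processing notes name TopHat2, Cufflinks, Cuffdiff, Picard and mm10 but no version; settings and gene models: not given in the sources used here. Deposited by the authors were 1 FPKM value per genotype, p-values, q-values and a test statistic (a score) in the layout of Cuffdiff, per the file headers. Of 23234 lines, 1 with run-together records was not used. The letters w and h that mark the value columns were taken to mean wildtype and homozygote, and Ret is near 0 in the latter. Log2 differences were recomputed from FPKM, with a pseudocount of 1 only where stated. The statistic-based p was adjusted by the Benjamini-Hochberg method (Python 3.11.15, scipy 1.17.1), tested on simulated data. It left out 8 tested lines without a statistic.

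Named genes were the called channel genes, the highest of each family, those listed at 0 in 1 genotype, and up to 4 called genes per list of related genes and 3 per marker list. Some genes the rule takes are left out of the text and figures. Members and lists were chosen with earlier results of these data known. Alternatives were other q thresholds, minimum values, minimum changes, the statistic-based p, single-symbol lines and other pseudocounts. All 135 symbols matched RefSeq, 1 through a synonym (Scn2a1). Of the 25 called lines 5 matched a RefSeq gene span exactly, and gene coordinates are printed only for such lines. RefSeq proteins were not used here.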

Additional observations from a re-analysis of the deposited data

How the results depend on the processing

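No paired analysis was possible because the table holds no value per sample, and for the same reason no replicate could be left out. With a minimum of 5 FPKM, 2 channel genes were lower and 6 higher (potassium 0 lower and 6 higher, sodium 0 lower). A 1.5-fold minimum with 1 FPKM added left 5 lower (potassium 4, sodium 1, calcium 0), and without the added value 0 calcium channel genes were lower. A stricter q of 0.01 kept 1 calcium channel fall. Treating the authors' statistic as a normal deviate, 5 were lower and 4 higher (potassium 3 lower and 4 higher, sodium 2 lower, calcium 0 lower). Each of these settings removes genes by its construction, except the statistic-based p, for which the cause was not tested. Every other combination of count and setting, among them q under 0.1, a minimum of 1 FPKM and lines with 1 symbol, stayed within 1.5 times. The median difference over the 63 tested genes stayed below 0 at every pseudocount tried. Depth is unknown, and the median implied error of a tested channel gene was 0.36 on the log2 scale, and the smallest change called was 0.33.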
